A study of Mus musculus with 4 samples.

Results

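The genes described here encode chromatin remodellers, histone modifiers and the proteins that read histone marks. They were chosen by symbol alone: all mouse protein-coding genes whose names begin with Smarc, or with Arid, Chd, Hdac, Kdm, Sirt or Brd followed by a digit, 78 of 21900 genes in all. The rule uses no binding value. Sp9 binding was profiled by ChIP-seq, in which DNA cross-linked to a protein is pulled down with an antibody and sequenced, in basal ganglia of wild-type CD1 embryos at embryonic day 16.5 (E16.5) and at embryonic day 13.5 (E13.5). Each stage had 1 library made with a rabbit antibody to Sp9 and 1 input library made with none, which served the authors as the control for calling peaks and was not analysed here. The labels do not say how many embryos went into a library. Each deposited list gives, for a gene, its peaks and their distances from the transcription start site (TSS) on the mm9 build. No height, width or read total is given, so depth was unknown and a gene without a peak may still be bound more weakly. Expression was not measured, so the tissue label was not checked against markers. With 1 library per stage there is no replicate check, and no test between stages was made. Intervals are 95% Wilson intervals and cover counting error over genes or peaks only. Where a count is 0, the share it allows is 3 divided by the number of genes. This is a rough upper limit, not a Wilson interval, and it is too wide for small groups.

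DNA in the nucleus is wound around histones, and remodellers use ATP to slide or evict these nucleosomes. BAF (mammalian SWI/SNF) is assembled from an ATPase and many exchangeable subunits, and neural progenitors and neurons are known to use different subunits. Histone deacetylases (HDACs) and sirtuins remove acetyl groups, lysine demethylases (KDMs) remove methyl groups, and bromodomain proteins bind acetylated histones. Sp9 is a zinc finger factor of the SP/KLF family, whose members bind GC-rich DNA, and it is needed for striatal projection neurons. The symbols do not all name a chromatin enzyme: Smarcal1 acts on stalled replication forks, and Sirt3, Sirt4 and Sirt5 are mitochondrial enzymes. Brd3os and Brd8dc were taken in by the symbol pattern only and placed in no family.

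Several of the results concern promoters, so the DNA just upstream of a start is shown for 7 members. The 250 bases before the start are from RefSeq (GRCm38.p6, not the build of the peaks), taken at the first listed, most upstream start where a gene has several. The mm9 start from which the authors measured may be another one. By the authors' distances, not every promoter peak falls in these bases. The Kdm3a peak lay 357 bp upstream at E16.5 and 336 bp at E13.5, and that of Arid1a 723 and 802 bp upstream. The E16.5 peaks of Hdac2, Smarcd1 and Hdac5 lay 395, 97 and 1 bp downstream. The marked letters are thus sequence before a start and were not placed under a peak. Capitals mark the GC box letters GGGCGG or their complement CCGCCC. Kdm3a and Arid1a had a promoter peak at both stages.
Kdm3a, chr6:71632918-71633167, minus strand: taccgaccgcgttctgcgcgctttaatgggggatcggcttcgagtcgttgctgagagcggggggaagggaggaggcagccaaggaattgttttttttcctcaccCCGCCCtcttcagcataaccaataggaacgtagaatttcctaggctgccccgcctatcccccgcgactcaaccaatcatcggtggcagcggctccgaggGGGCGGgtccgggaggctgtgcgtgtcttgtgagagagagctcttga
Arid1a, chr4:133756770-133757019, minus strand: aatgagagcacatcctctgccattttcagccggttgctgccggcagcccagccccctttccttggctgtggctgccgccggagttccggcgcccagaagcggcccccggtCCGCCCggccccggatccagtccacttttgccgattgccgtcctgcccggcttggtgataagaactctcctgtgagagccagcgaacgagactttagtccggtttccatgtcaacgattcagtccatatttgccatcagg

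The next 4 genes had a promoter peak in the E16.5 list alone and are those with the nearest peaks among members for which a sequence was taken.
Hdac5, chr11:102230173-102230422, minus strand: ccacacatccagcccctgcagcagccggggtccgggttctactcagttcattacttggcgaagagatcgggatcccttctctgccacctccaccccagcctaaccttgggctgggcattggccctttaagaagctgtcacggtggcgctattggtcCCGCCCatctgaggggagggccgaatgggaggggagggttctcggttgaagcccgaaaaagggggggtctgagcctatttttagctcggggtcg
Smarcc1, chr9:110131774-110132023, plus strand: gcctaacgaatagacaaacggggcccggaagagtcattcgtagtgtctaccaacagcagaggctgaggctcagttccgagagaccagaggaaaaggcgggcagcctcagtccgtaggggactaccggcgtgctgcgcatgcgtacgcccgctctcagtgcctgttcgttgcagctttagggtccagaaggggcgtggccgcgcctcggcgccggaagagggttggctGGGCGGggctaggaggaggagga
Smarcd1, chr15:99702037-99702286, plus strand: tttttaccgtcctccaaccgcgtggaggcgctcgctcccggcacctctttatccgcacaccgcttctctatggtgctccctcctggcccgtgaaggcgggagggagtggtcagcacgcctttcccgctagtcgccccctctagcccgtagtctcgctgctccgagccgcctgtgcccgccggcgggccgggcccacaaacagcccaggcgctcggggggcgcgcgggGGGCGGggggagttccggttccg
Hdac2, chr10:36974294-36974543, plus strand: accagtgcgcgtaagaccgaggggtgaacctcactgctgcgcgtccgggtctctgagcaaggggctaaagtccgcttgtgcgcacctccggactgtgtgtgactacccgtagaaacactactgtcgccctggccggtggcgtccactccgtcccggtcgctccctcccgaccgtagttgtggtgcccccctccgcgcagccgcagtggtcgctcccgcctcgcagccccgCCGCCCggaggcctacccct

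Smarca4 is shown as the counterpart with a promoter peak in the E13.5 list alone. It was picked after its values were seen.
Smarca4, chr9:21615919-21616168, plus strand: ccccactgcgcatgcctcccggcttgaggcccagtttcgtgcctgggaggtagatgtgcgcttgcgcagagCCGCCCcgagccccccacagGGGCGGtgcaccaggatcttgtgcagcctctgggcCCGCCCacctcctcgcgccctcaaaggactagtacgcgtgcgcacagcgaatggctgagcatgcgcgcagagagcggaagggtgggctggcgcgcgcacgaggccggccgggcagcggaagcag

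Every window shown above holds the GC box letters, once in Arid1a, Hdac5, Smarcc1, Smarcd1 and Hdac2, 2 times in Kdm3a and 3 times in Smarca4. The count depends on the start: it is 7 at start 2 of Arid1a, 4 at start 2 of Kdm3a and 0 at start 3 of Kdm3a. In Smarcc1, Smarcd1 and Hdac2 the box begins 23, 23 and 20 bases before the start. GC boxes are common, however. On either strand, GGGCGG occurs in 52 of 80 windows of the 59 members with a sequence (65%), and in 9063 of 21263 windows of all protein-coding genes (42.6%). Among members with a promoter peak at either stage it occurs in 12 of 14 windows (85.7%), among members without one in 40 of 66 (60.6%), and among all genes with a promoter peak in 70.1%. The 14 windows come from 10 of the 15 members with a promoter peak, and starts of 1 gene are not independent. At the first start of each gene, GGGCGG occurs in 10 of 10 members with a promoter peak and 31 of 49 without one. Among all genes with a promoter peak that share is 73.7%. The windows of these groups also differ in base composition. Median GC content is 67.2% in members with a promoter peak and 64% in all genes with one. It is 61.2% in members without one and 55.6% over all genes. The part of base composition in the GC box shares was not tested. The letters GGGTGG, the core of the related GT box, which may share bases with a GC box, occur in 32.5% of member windows and 30.2% of all windows. TAATTA, a homeodomain core, is in none of the member windows. With 1 start per gene, a count of 0 of 59 allows a share of up to 5.08%, which includes the 4.45% of all genes.

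Peaks at the promoter, here within 1 kb of the TSS, were found at 11 members at E16.5 (14.1%, interval 8.06 to 23.5) and at 7 members at E13.5 (8.97%, 4.42 to 17.4). Of all protein-coding genes, 9.42% had such a peak at E16.5 and 4.93% at E13.5. Both intervals for the members include the share over all genes. In the window that the authors gave every gene, from 5 kb upstream to 1 kb downstream, 13 members had a peak at E16.5 (16.7%; all genes 10.2%) and 7 at E13.5 (8.97%; all genes 5.51%). Within 50 kb the count was 22 members at E16.5 (28.2%, 19.4 to 39; all genes 15.1%) and 10 at E13.5 (12.8%, 7.12 to 22; all genes 10.8%). Counting every peak assigned to a gene, 31 members had one at E16.5 (39.7%; all genes 23.6%) and 24 at E13.5 (30.8%; all genes 20.7%). Within 50 kb the interval for the members lay above the share over all genes at E16.5 and included it at E13.5. For any assigned peak it lay above that share at both stages (29.6 to 50.8 at E16.5, 21.6 to 41.7 at E13.5). Over both lists, 38 members had an assigned peak (48.7%; all genes 28%) and 17 had one at each stage (21.8%; all genes 16.3%), and 40 of 78 members had none.

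**Figure D1:**
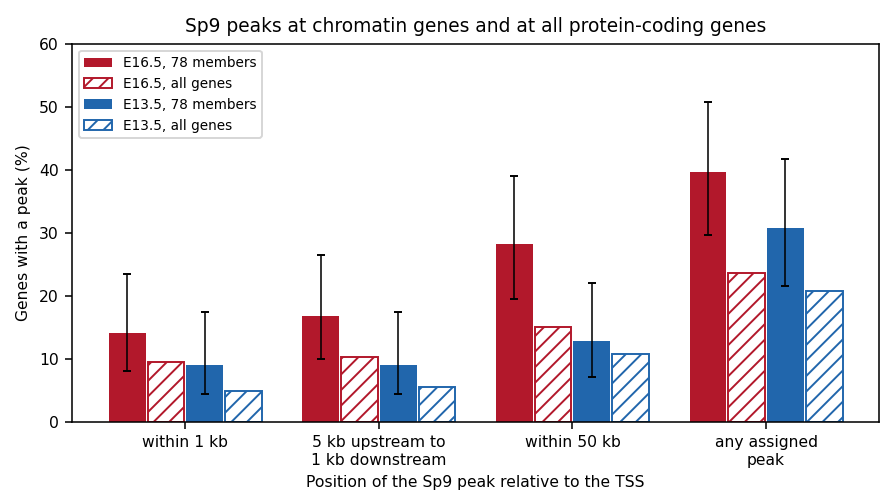
Percent of genes with an Sp9 peak, by where the peak lies relative to the TSS. Filled bars are the 78 members with 95% Wilson intervals, hatched bars all 21900 protein-coding genes, and E16.5 stands left of E13.5. The filled E16.5 bar within 50 kb is at 28.2%, against 15.1% over all genes.

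The members near a peak overlapped in part between the stages. Of the 22 members with a peak within 50 kb at E16.5 and the 10 at E13.5, 5 were in both lists, which is 22.7% of the E16.5 members and 50% of the E13.5 members. The 5 make up 6.41% of the members (all genes 7.78%), while 17 members were near a peak at E16.5 only (21.8%; all genes 7.27%) and 5 at E13.5 only (6.41%; all genes 3.02%), so that 27 were at either stage (34.6%; all genes 18.1%). Over all genes the shared part was 51.7% of the E16.5 genes and 72% of the E13.5 genes. At promoters, 3 members had a peak at both stages (all genes 3.4%), 8 at E16.5 only (all genes 6.02%) and 4 at E13.5 only (all genes 1.53%). The 15 members with a promoter peak at either stage make up 19.2% (12 to 29.3; all genes 10.9%). The shared 3 are 27.3% of the 11 members at E16.5 and 42.9% of the 7 at E13.5, beside 36.1% and 69% over all genes. A peak present in 1 list may lie just under the threshold in the other, and this could not be examined without heights.

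The BAF subunit genes supplied 4 of the 11 members with a promoter peak at E16.5 and 5 of the 7 at E13.5. These are 28.6% and 35.7% of the 14 BAF genes among the members, beside 9.42% and 4.93% of all genes. Of these 14, 7 had one at either stage, which is 50%, beside 10.9% of all genes. BAF subunit genes with other symbols, given further below, had one in only 2 of 15 at E16.5 and 0 of 15 at E13.5. Arid1a, which encodes the large ARID subunit of canonical BAF, had the most peaks within 50 kb of any member, 3 at E16.5 and 4 at E13.5. They lay 723, 2483 and 3170 bp upstream at E16.5, and the matching E13.5 peaks lay 802, 2507 and 3091 bp upstream. These 3 recurred, meaning that their distances matched between the lists within 200 bp. A further Arid1a peak 23741 bp downstream was in the E13.5 list only. Its paralogue Arid1b had its nearest peak 86706 bp upstream at E16.5, against 808 bp upstream at E13.5.

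Smarce1, which encodes the HMG-box subunit BAF57, was the other BAF gene with a promoter peak in both lists, 515 bp downstream at E16.5 and 472 bp downstream at E13.5. The scaffold gene Smarcc1 had a peak 91 bp upstream at E16.5 only. Both lists held a Smarcc1 peak about 77 kb downstream, at 77075 bp at E16.5 and 77092 bp at E13.5, which lies nearer to Cspg5, 34671 and 34654 bp upstream of that gene. Smarcd1, which encodes a BAF60 subunit, had a peak 97 bp downstream at E16.5 only, and its paralogue Smarcd3 one 2698 bp upstream, also at E16.5 only. Smarca4, which encodes the ATPase BRG1, had its single peak 113 bp upstream at E13.5, and Smarcb1, the core subunit INI1, its single peak 500 bp downstream at E13.5. Neither had an assigned peak at E16.5.

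Smarca2, which encodes BRM, the alternative ATPase to BRG1, had distal peaks instead: 165046 and 240509 bp downstream at E16.5, and 73505 and 164933 bp downstream at E13.5. Of these, the peaks beyond 100 kb lie nearer to Gm815. The remaining BAF genes, Smarcc2, Smarcd2, Arid2, Brd7 and Brd9, had no peak in either list.

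**Figure D2:**
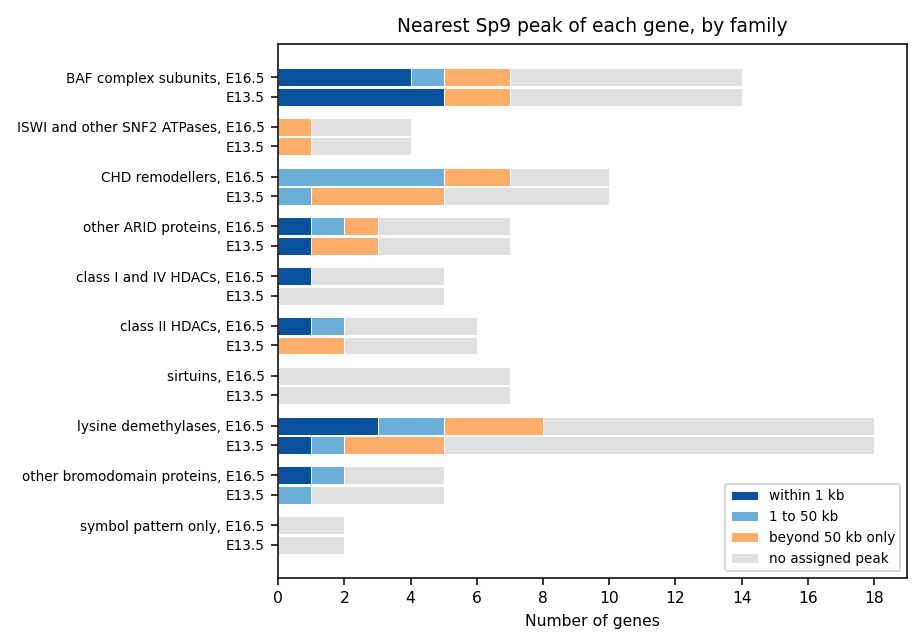
Number of genes in each family by the distance of their nearest Sp9 peak, E16.5 above E13.5 in each pair. The dark segment counts promoter peaks: 4 and 5 of 14 BAF genes, and none of the 10 CHD genes or 7 sirtuins at either stage.

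The CHD remodellers mostly combine a chromodomain with an SNF2-type ATPase. Of these 10 genes, 7 had an assigned peak at either stage (all genes 28%), and each list held 18 CHD peaks. None of the 10 had a promoter peak at either stage, which allows a share of up to 30% and so includes the 10.9% of all genes. Within 50 kb there were 5 genes at E16.5 (50%; all genes 15.1%) and 1 at E13.5 (10%; all genes 10.8%). Chd3, an ATPase gene of the NuRD corepressor complex, was the one near a peak at both stages, 2536 bp downstream of the TSS at E16.5 and 2625 bp at E13.5, with another peak 28743 bp downstream at E16.5 that lies nearer to Kcnab3. Its paralogue Chd4, the main NuRD ATPase, had a single peak 6670 bp upstream at E16.5. Chd8, whose loss is linked to autism in humans, had a single peak 20327 bp upstream at E16.5, almost as close to Tox4, of which it lay 21247 bp upstream.

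Far from their promoters, several CHD genes had peaks that recurred. Beyond 50 kb, 69.4% of all E16.5 peaks and 56.5% of all E13.5 peaks recurred, so recurrence there is not particular to these genes. Chd9 had 6 peaks at E16.5 and 7 at E13.5, and 5 recurred. These were 435965, 332351, 292566, 285602 and 192803 bp upstream at E16.5, against 435978, 332254, 292573, 285702 and 192859 bp at E13.5. The first 4 of these lie nearer to Tox3 than to Chd9. Chd9 peaks at a single stage lay 47621 bp downstream at E16.5, nearer to Gm6658, and 297798 bp (nearer to Tox3) and 67058 bp upstream at E13.5. Chd2, mutated in a human childhood epilepsy, had 3 peaks at E16.5, at 96000, 76687 and 65224 bp upstream, and all 3 recurred at 96045, 76714 and 65306 bp at E13.5. A peak 89256 bp upstream and one 141288 bp downstream of Chd2 were in the E13.5 list only, and the downstream one lies 24938 bp from the Rgma TSS.

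Chd7, the gene of human CHARGE syndrome, had peaks 113356 bp upstream and 97387 bp downstream at E16.5 that recurred at 113371 and 97318 bp at E13.5. The upstream one lies nearer to Rab2a. At E16.5 only, Chd7 had a peak 43325 bp upstream and one 319940 bp downstream that lies nearer to Clvs1, and at E13.5 only, one 108735 bp downstream. Chd6 had a very distant peak in both lists, 909779 bp upstream at E16.5 and 909744 bp at E13.5, which lies nearer to Ptprt, and a second at E13.5 only, 685912 bp upstream. Chd1, Chd1l and Chd5 had no assigned peak.

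**Figure D3:**
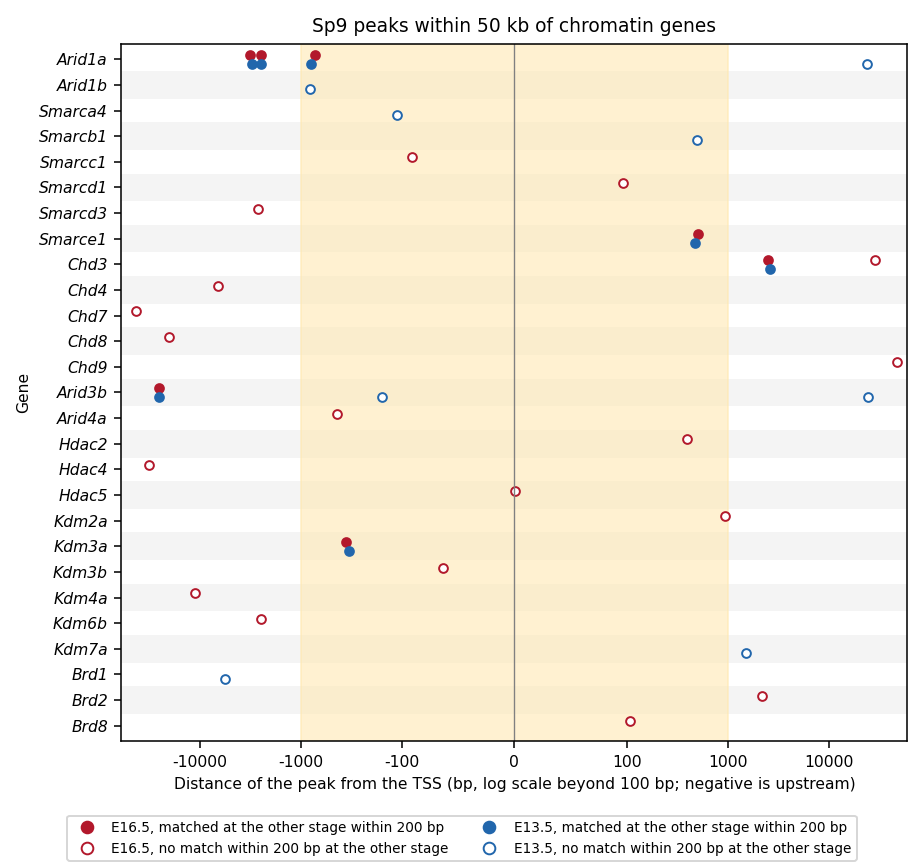
Signed distance from the TSS, in bp on a log scale beyond 100 bp, of every Sp9 peak within 50 kb of a member, E16.5 points above E13.5 points. The shaded band is the promoter. Filled points have a match within 200 bp at the other stage and open points do not: 7 filled points stand at each stage, in 5 genes.

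Among the 4 genes of ISWI and other SNF2-type ATPases, none had a peak within 50 kb. By the rough limit for a count of 0, 0 of 4 allows a share of up to 75%, which is too wide for so few genes. It includes the 15.1% of all genes at E16.5 and 10.8% at E13.5. Smarcal1 had a peak 90264 bp downstream at E16.5, nearer to Ankar. Smarca1, an ISWI ATPase gene, had one 592062 bp downstream at E13.5. Smarca5, its widely expressed paralogue, and Smarcad1 had none.

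The remaining ARID genes encode DNA-binding proteins and corepressor subunits. Arid3b had a peak 25797 bp upstream at E16.5 that matched one at 25769 bp at E13.5, and 2 more at E13.5 only, 157 bp upstream and 24518 bp downstream. Arid4a, a subunit gene of the SIN3 corepressor, had a single peak 440 bp upstream at E16.5, and its paralogue Arid4b a single peak 67703 bp downstream at E13.5. Arid5b had no peak within 50 kb but 4 peaks at E16.5 and 5 at E13.5. Of these, the peaks 77183 bp upstream and 112848 and 179845 bp downstream at E16.5 recurred at 77191, 112960 and 179826 bp at E13.5. A pair at 86432 bp at E16.5 and 87615 bp at E13.5 lay too far apart to match, and a peak 165496 bp upstream, nearer to Cabcoco1, was in the E13.5 list only. The matched peaks at 179845 and 179826 bp lie nearer to Rtkn2. Arid3a, Arid3c and Arid5a had no peak.

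Of the 11 histone deacetylase genes, 2 had a promoter peak at E16.5 (18.2%; all genes 9.42%) and 0 at E13.5, which allows a share of up to 27.3% (all genes 4.93%), a difference that was not tested. Hdac2, a class I enzyme of the NuRD, SIN3 and CoREST complexes, had a peak 395 bp downstream at E16.5, and Hdac5, a class IIa enzyme that shuttles between nucleus and cytoplasm, had one 1 bp downstream of the TSS at E16.5. Neither gene was in the E13.5 list. Hdac4, the paralogue of Hdac5, had a peak 32287 bp upstream at E16.5 and another 76137 bp upstream at E13.5, which do not match. Hdac9 had a peak 118984 bp upstream at E13.5 only. This left Hdac1, Hdac3, Hdac6, Hdac7, Hdac8, Hdac10 and Hdac11 with none. The 7 sirtuin genes, Sirt1 to Sirt7, encode NAD-dependent enzymes and had no assigned peak at any distance in either list. A count of 0 of 7 allows a share of up to 42.9%, which is above the background of 23.6% at E16.5 and 20.7% at E13.5.

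Of the 18 lysine demethylase genes, 5 had a peak within 50 kb at E16.5 (27.8%; all genes 15.1%) and 2 at E13.5 (11.1%; all genes 10.8%), the E13.5 share being near that of all genes. Kdm3a, which removes methyl groups from lysine 9 of histone H3, had its only peak at the promoter at both stages, 357 bp upstream at E16.5 and 336 bp upstream at E13.5. Its paralogue Kdm3b had a peak 64 bp upstream at E16.5 only, and Kdm2a, which acts on lysine 36, one 944 bp downstream at E16.5 only. Kdm6b, which removes the Polycomb mark on lysine 27, had a single peak 2467 bp upstream at E16.5. Kdm7a was in the E13.5 list only, under its older name Jhdm1d, with a peak 1534 bp downstream.

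Peaks of the Kdm4 genes recurred but mostly lay nearer to other genes. Kdm4a had peaks 63521 bp upstream at E16.5 and 63520 bp at E13.5, nearer to Ptprf, and an E16.5 peak 11249 bp upstream with no match. Kdm4b had peaks 141524 and 148945 bp downstream at E16.5 that recurred at 141552 and 148893 bp at E13.5, where a further one lay at 136292 bp. These lie close to the phosphatase gene Ptprs, the nearest 1464 bp from its TSS at E16.5 and 1516 bp at E13.5. Kdm4c had 1 peak per list, 960970 bp downstream at E16.5 and 960979 bp at E13.5, nearer to Dmac1. Kdm2b had a peak 88628 bp downstream at E16.5 only, nearer to Rnf34. The other 9 demethylase genes, Kdm1a, Kdm1b, Kdm4d, Kdm5a, Kdm5b, Kdm5c, Kdm5d, Kdm6a and Kdm8, had none.

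Of the bromodomain genes outside BAF, 3 had a peak, each at a single stage. Of all genes, 28% had an assigned peak at either stage, and the group is too small to set a share against this. Brd8, a subunit of the TIP60 acetyltransferase complex, had a peak 109 bp downstream at E16.5, divided into 2 lettered entries. It also lies 132 bp upstream of Kif20a, so the promoters of these neighbours cannot be told apart here. Brd8 was the only member whose peak lay within 1 kb of another listed gene as well. Brd2, a BET protein gene, had a peak 2169 bp downstream at E16.5, whereas its paralogue Brd3 had none. Brd1, a scaffold of histone acetyltransferase complexes, had a peak 5613 bp upstream at E13.5. Brd3os and Brd8dc had none.

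By position, the share of member peaks that recurred was highest beyond 50 kb at both stages, a difference that rests on few peaks and was not tested. Over all peaks that share was also highest beyond 50 kb at E16.5, but at E13.5 it was highest at promoters. Each list held 56 member peaks, and 30 of them (53.6%, 40.7 to 66) recurred, beside 56% of all E16.5 peaks and 57.8% of all E13.5 peaks. Beyond 50 kb, 23 of 31 member peaks at E16.5 recurred (74.2%; all peaks 69.4%) and 23 of 41 at E13.5 (56.1%; all peaks 56.5%). Between 1 and 50 kb, 4 of 14 recurred at E16.5 (28.6%; all peaks 57.5%) and 4 of 8 at E13.5 (50%; all peaks 57.9%). At promoters, 3 of 11 recurred at E16.5 (27.3%; all peaks 32.9%) and 3 of 7 at E13.5 (42.9%; all peaks 62.8%). Matched member peaks differed by 1 to 113 bp, with a median of 29.5 bp, beside 37 bp over all matched pairs. The pairs with distances 509 bp apart at Arid1a, near 60 kb upstream, and 244 bp apart at Arid1b, near 954 kb upstream, missed the limit of 200 bp.

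**Figure D4:**
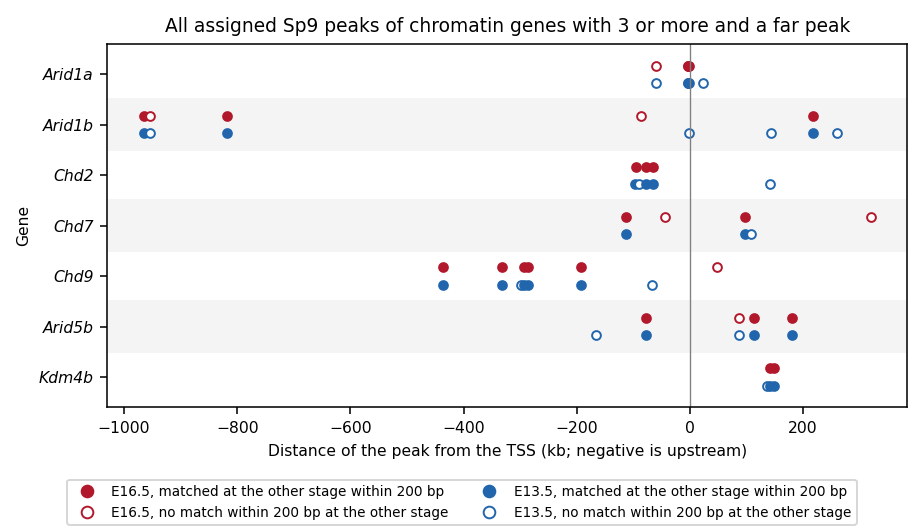
Distance from the TSS in kb of every assigned peak of the 7 members with 3 or more peaks in a list and a peak beyond 50 kb, E16.5 points above E13.5 points. Filled points have a match within 200 bp at the other stage, such as the 5 upstream peaks of Chd9, and open points do not.

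Assignment to a gene does not place a peak in its control. Of the 56 member peaks, 41 at E16.5 and 47 at E13.5 were also assigned to another gene (73.2% and 83.9%, beside 75.5% and 82.2% of all peak and gene pairs), and the member had the nearest listed TSS for 34 at E16.5 and 35 at E13.5. Promoter peaks made up 19.6% of the member peaks at E16.5 and 12.5% at E13.5, beside 23% and 11.8% of all peak and gene pairs. The far peaks of Arid1b show the ambiguity: those 965647, 954722 and 817384 bp upstream at E16.5 and 965662, 954478 and 817415 bp upstream at E13.5 lie nearer to Nox3. Its peak 217350 bp downstream at E16.5, matched at 217334 bp at E13.5, lies about as far from Tmem242, at 227836 and 227852 bp, and the E13.5 list had 2 more downstream peaks, at 144003 and 260184 bp, the second of them nearer to Tmem242.

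Genes of the same complexes and pathways with other symbols were also counted, in lists picked with earlier results of these data known. Of 80 such genes in 6 lists, 25 had a promoter peak at E16.5 (31.2%; all genes 9.42%) and 15 at E13.5 (18.8%; all genes 4.93%). Of the 80, 12 had one at both stages, beside 3.4% of all genes. The members stood at 14.1% and 8.97%, and the difference was not tested. The Polycomb group, which silences genes through lysine 27 methylation and ubiquitination of histones, had 7 of 15 genes at E16.5 and 5 of 15 at E13.5. In it Phc2 had peaks 116 bp upstream at E16.5 and 228 bp at E13.5, Bmi1 91 and 261 bp upstream, and Cbx8 231 and 145 bp upstream.

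Histone methyltransferase genes had 8 of 16 at E16.5 and 4 of 16 at E13.5, beside 9.42% and 4.93% of all genes. Kmt2a, the founding H3 lysine 4 methyltransferase of the MLL family, had peaks 162 bp upstream at E16.5 and 105 bp at E13.5. Setd1a had them 421 and 511 bp downstream, and Kmt2c 904 and 803 bp upstream. Subunits of NuRD, CoREST and SIN3 had 5 of 17 at E16.5 and 3 of 17 at E13.5. Here the 3 shared genes were Mbd3, 14 bp upstream at E16.5 and 57 bp downstream at E13.5, Sin3a, 526 and 574 bp downstream, and Rcor2, 832 and 774 bp downstream.

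Acetyltransferase genes had 3 of 9 at E16.5 and 2 of 9 at E13.5, beside 9.42% and 4.93% of all genes. Kat6b had a promoter peak at both stages, 663 and 829 bp downstream. BAF subunit genes with other symbols had 2 of 15 at E16.5 and 0 of 15 at E13.5. The 2 were Dpf1, a neuronal BAF subunit gene, 133 bp upstream, and Actb, 886 bp downstream, both named after their values were seen. DNA methylation genes had 0 of 8 at E16.5 and 1 of 8 at E13.5, the maintenance methyltransferase gene Dnmt1 at 46 bp downstream, named after its value was seen.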

How the data were processed

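Sp9 ChIP-seq peak lists of 1 library per stage were analysed. The submitters' processing notes list MACS2 2.1.0, BWA 0.6.2, bcl2fastq 1.8.4, CASAVA 1.8.2 and mm9, without roles. How strict the peak calling was is not stated there. The deposited values are text of another kind than a standard unit: peak numbers with signed TSS distances. Per the file headers, the authors gave each gene a domain from 5000 bp upstream to 1000 bp downstream, reaching up to 1000000 bp by extension, and used curated domains too. Wider windows therefore favour genes in gene-poor regions.

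Lettered entries of a peak were counted as 1 peak. Names were matched to a RefSeq gene table (GRCm38.p6, used for names and biotypes) by current symbol, then by a unique synonym: 5330 of 5463 at E16.5 and 4698 of 4826 at E13.5. The lists held 6022 peaks at E16.5 and 5847 at E13.5. Recurrence shares use 5974 and 5784 peaks with a matched gene. All 21900 protein-coding genes formed the background, and any gene missing from the authors' gene set could receive no peak. The 59 members with a sequence were matched by symbol. Motifs were searched on both strands in the 250 bases before each start.

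The symbol rule for the members uses no binding value, but this gene family and the lists were picked with earlier results of these data known. Counts are descriptive; no set test was made. Members were named with all distances within 50 kb; the values of 1 member are not reported here. Sequences were printed for members with promoter peaks at both stages and for the nearest at E16.5 only, leaving out genes without a tabulated sequence. Of each related list, up to 3 genes with promoter peaks at both stages were named. Parsing and matching were tested on simulated data. Tools were matplotlib 3.10.9, numpy 2.4.6, scipy 1.17.1 and Python 3.11.15. Alternatives were other windows, matching limits and name matching.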

Additional observations from a re-analysis of the deposited data

How the results depend on the processing

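The window set how many members counted as near a peak. From 5 kb upstream to 1 kb downstream, 13 members had a peak at E16.5 against 22 within 50 kb, and within 100 kb, 19 had one at E13.5 against 10 within 50 kb. Both follow from the width of the window. The count at E16.5 exceeded that at E13.5 in every window tried, by 16 to 10 within 10 kb and by 27 to 19 within 100 kb. The share over all genes was likewise higher at E16.5, at 9.42% against 4.93% at promoters and 15.1% against 10.8% within 50 kb. For 10 and 100 kb it was not computed. Counts with promoters within 500 bp or 2.5 kb, with matching within 100 bp, 500 bp or 1 kb, with lettered entries counted singly, with peaks given to the nearest TSS, with current symbols only, and with 1 start per gene for the GC box (the last, and current symbols for the related genes, added after seeing the data) stayed within 1.5 times the values given. No paired analysis was possible because each stage has 1 library. Without heights or read totals, peaks just under the threshold at 1 stage could not be told from absent ones.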

Other observations

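Among the related chromatin genes, a few carried many peaks, and they were picked after their values were seen. Kat6b, an acetyltransferase gene mutated in human developmental syndromes, had 8 assigned peaks at E16.5 and 7 at E13.5, more than any of the 78 members at E16.5, where Chd9 led with 6, and as many as Chd9 and Arid1b at E13.5. Jarid2, a Polycomb cofactor gene, had 5 peaks at E16.5 and 6 at E13.5, with the nearest 373 bp upstream at E16.5 and 317 bp upstream at E13.5. Ezh2, which encodes the Polycomb methyltransferase, had 1 peak at E16.5 and 5 at E13.5, the nearest 54142 bp upstream at E16.5 and 52135 bp upstream at E13.5. Ehmt1 and Ehmt2, which encode partner methyltransferases of H3 lysine 9, had unlike entries in the E16.5 and E13.5 lists, and a difference between stages was not tested. Ehmt2 had a peak 334 bp upstream at E16.5 and its nearest at E13.5 lay 4665 bp upstream, whereas Ehmt1 had no assigned peak at E16.5, against one 51 bp upstream at E13.5.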
